A study of Arabidopsis thaliana with 6 samples.

Results

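NAC014 (locus AT1G33060) was the NAC transcription factor gene that could be followed in rosette leaves of the Arabidopsis thaliana mutant pho1. Members of the family were taken as probe sets, each a group of short probes summarised as 1 value, that were paired with exactly 1 gene whose symbol is NAC or ANAC followed by a number. This held for 1 of the 22746 probe sets other than controls, 261616_at, and so for 1 of the 13356 genes that had a probe set of their own. RefSeq genes of the TAIR10.1 assembly include 81 loci with such a symbol. The other 80 had no probe set paired with them in the platform annotation used here and were not analysed here, so the values below describe NAC014 and not the family.

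NAC proteins are plant-specific transcription factors that bind DNA through a conserved domain at the amino terminus, while the rest of the protein activates or represses transcription. The family is known in leaves for the control of senescence and of responses to drought, wounding and pathogens, and elsewhere for the formation of vessels, organ boundaries and the root cap. A subset carries a membrane-spanning segment at the carboxyl terminus and is held at a membrane until the DNA-binding part is released. NAC014 belongs to this subset, where it is also called NTL2. Its release from a membrane is a step at the protein level, which an array of transcripts does not measure.

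With biotin as the label, total RNA was profiled on 6 ATH1 arrays, 3 of wild-type Col-2 and 3 of pho1. By the labels, pho1 (stock N8507) is an EMS mutant in the Col-2 background, EMS being a chemical mutagen, and the wild type is stock N907. PHO1 is known to export phosphate into the xylem in roots, and its mutants have shoots poor in phosphate. All plants were at growth stage 3.90 and shared agar (0.8%) with MS salts and 1% sucrose, 24 °C, 80% humidity and a 16 h photoperiod. A single mutant line was measured, so other changes carried by that line cannot be told apart from the pho1 mutation. PHO1 itself was the only gene of 0 probe sets, and probe sets with several genes were not searched for it. The labels do not say whether replicates came from separate plants or how many plants were pooled, so the tests cover only the scatter of these 6 samples, part or all of which may be technical.

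Arrays had median signals between 41.2 and 46.5 and had been brought to a common mean level before deposit. Both replicate 1 arrays stood apart in their spike-in controls: over 12 control probe sets for dap, lys, phe and thr, the median signal was 2.25 for wild type and 2.1 for pho1 in replicate 1, while replicates 2 and 3 gave 36.2 to 76.3. The labels name no batch. The leaf label was checked with 3 mesophyll genes of 15 listed that had a named probe set: rubisco activase (RCA) averaged 3813 for wild type and 3901 for pho1, and LHCB4.2 averaged 3334 and 3868. SBPASE, an enzyme of the Calvin cycle, averaged 2375 for wild type and 1666 for pho1 and was lower in pho1 in 3 of 3 pairs. Its difference of -0.56 on the log2 scale did not pass over all arrays (limma adjusted p = 0.39). In replicates 2 and 3 alone it was -0.80 (limma adjusted p = 0.019), in a fit that called 19% of all tested probe sets. RCA and LHCB4.2 did not pass in that fit. Both replicate 1 arrays were also the highest in these 2 genes. RCA was at 5009 in wild type and 5097 in pho1 there, against 3025 to 3582 elsewhere. LHCB4.2 was at 5144.5 and 4789, against 2398 to 3833. SBPASE did not separate replicate 1 in this way, with 2421 in wild type replicate 1 and 2573 in wild type replicate 2. The cause was not tested.

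The question was whether leaves of the mutant and of its wild type differ in NAC014 transcript. No difference was detected. In wild type the signal of NAC014 was 34.5 in replicate 1, 33.0 in replicate 2 and 31.9 in replicate 3. In pho1 it was 41.1 in replicate 1, about 24 in replicate 2 (5.07 on the log2 scale used below) and 37.9 in replicate 3. The 3 wild-type values thus lay close together and inside the range of the pho1 values, of which 2 were above and 1 was below all of them. The group means were 33.1 ± 1.31 in wild type and 34.2 ± 9.38 in pho1 (SD, n = 3 each). NAC014 was dim, with every signal below the lowest array median of 41.2. Detection calls were not used, so whether its signal stood above background was not tested. In whole tissue, fewer cells that hold a transcript and less transcript per cell cannot be told apart.

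**Figure D1:**
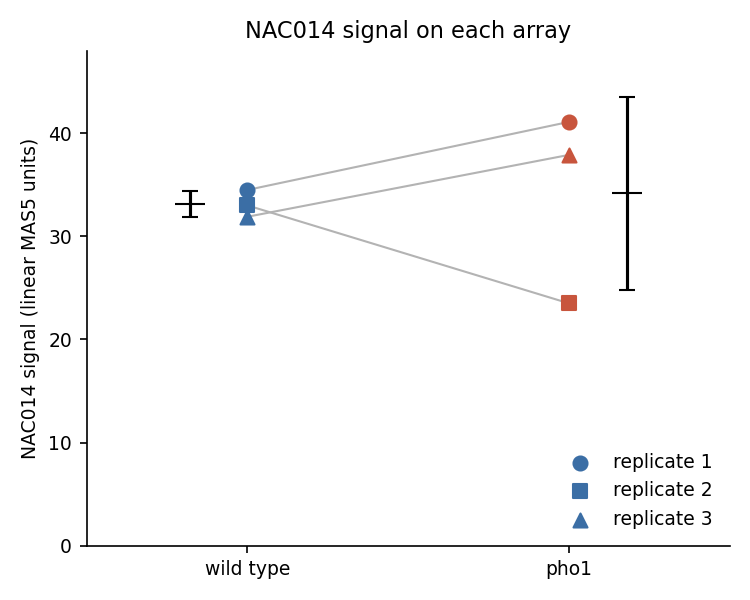
NAC014 signal in linear MAS5 units on each of the 6 arrays, with symbols for the replicate number, grey lines joining arrays of the same number, and black bars for the group mean ± SD (n = 3 each). The wild-type arrays sit between 31.9 and 34.5, and the pho1 arrays range from about 24 to 41.1 around nearly the same mean.

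Differences were tested on the scale log2(signal + 10), which dampens changes of dim probe sets. On this scale NAC014 had a mean of 5.43 ± 0.044 in wild type and 5.44 ± 0.33 in pho1 (SD). The difference, pho1 minus wild type, was 0.011 ± 0.20 (SE; limma adjusted p = 0.99 over 15922 tested probe sets), and its sign turned under 7 of the 17 alternative settings that tested the gene. The 95% interval of the difference ran from -0.45 to 0.47. As a ratio of signal plus 10, pho1 could thus lie between 0.733 and 1.38 times wild type. These are not bounds on the ratio of the signals themselves, which the added 10 draws towards 1. With an offset of 1% of the mean level in place of 10%, the interval was wider, from -0.58 to 0.59. A two-sided exact permutation test of the log2 values gave p = 1, where 3 arrays against 3 cannot go below 0.10. Of all tested probe sets, 2.96% were called different at an adjusted p under 0.05, 2.62% as higher and 0.345% as lower in pho1. That split, 417 higher against 55 lower, was near even in 2 of the 18 alternative fits, with 1982 against 1807 under array weights and 1547 against 1474 in replicates 2 and 3 only. NAC014 was not among them, nor among the 15.1% with an unadjusted p under 0.05 or the 19.9% in which the groups did not overlap.

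The difference of NAC014 was also small beside that of other probe sets. Only 2.86% of the 15922 tested probe sets differed by less in size, and the median size of a difference was 0.20 on the log2 scale. Over all tested probe sets the median of the signed differences was -0.021, which puts NAC014 0.032 above it. The half-width of its 95% interval was 0.46, against a median of 0.47 over all tested probe sets. On this scale, which dampens dim probe sets, the measurement of NAC014 was therefore about as precise as that of a usual probe set. The half-width rests on 1 variance for both groups, although the spread of NAC014 differed between them. A difference within that half-width could not pass even an unadjusted threshold of 0.05, so smaller changes were not detectable with 3 arrays a group. To be called at an adjusted p under 0.05, a probe set needed an unadjusted limma p of about 0.0015 or less. For NAC014 this takes a difference larger than the half-width, so changes somewhat above 0.46 would also have been missed.

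**Figure D2:**
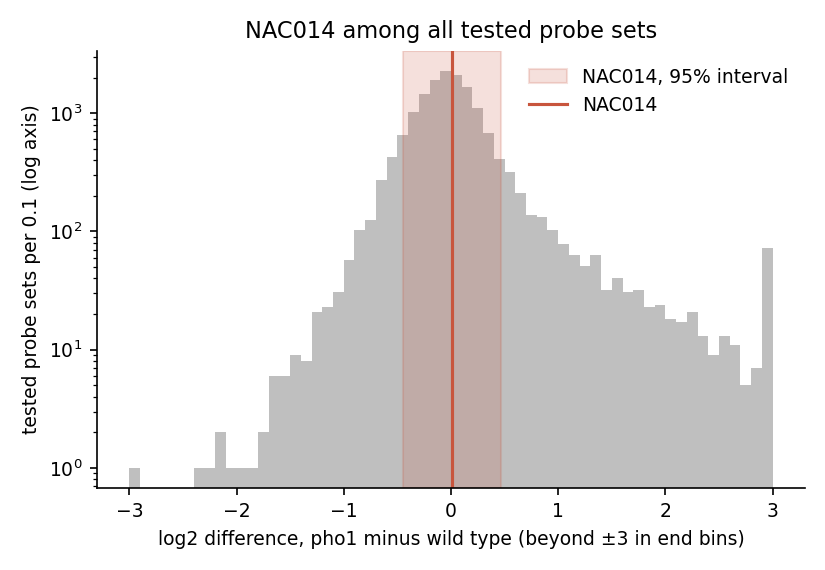
Histogram of the log2 difference, pho1 minus wild type, of the 15922 tested probe sets, with counts on a log axis and values beyond 3 in either direction in the end bins. The red line marks NAC014 at 0.011 and the shaded band its 95% interval from -0.45 to 0.47, which covers the centre of the distribution and neither tail.

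NAC014 varied more among the arrays of the mutant than among those of the wild type. Its SD on the log2 scale was 0.044 in wild type, and 3.13% of tested probe sets had a smaller one there. In pho1 its SD was 0.33, and 71.5% of tested probe sets had a smaller one. Median SDs over all tested probe sets were 0.22 in wild type and 0.23 in pho1, so NAC014 lay on the quiet side in the wild type and on the noisy side in the mutant. With 3 arrays a group this difference in spread is given without a test.

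The array farthest from its group mean was pho1 replicate 2. Relative to its group mean on the log2 scale, NAC014 was at -0.37 in pho1 replicate 2, at 0.23 in pho1 replicate 1 and at 0.14 in pho1 replicate 3. In wild type the deviations were 0.045, -0.0040 and -0.041 for replicates 1, 2 and 3. Without pho1 replicate 2 the difference was 0.20 (95% interval -0.24 to 0.64; limma adjusted p = 0.80), and without pho1 replicate 1 it was -0.11 (interval -0.60 to 0.38; limma adjusted p = 0.84). The sign thus differed between these subsets of arrays, and neither value passed the test. It also turned with all pho1 arrays kept, to -0.062 with quantile normalisation and to -0.0099 without wild type replicate 3.

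By replicate number, NAC014 was higher in pho1 in pair 1, by 0.20 on the log2 scale, and in pair 3, by 0.19. In pair 2 it differed by -0.36. The set of both replicate 1 arrays, which lacked the spike-in signal, holds 1 array of each group and allows no test. Within replicates 2 and 3 alone NAC014 differed by -0.084 (limma adjusted p = 0.82), in a fit that called 19% of its tested probe sets. The order of the 6 arrays, from pho1 replicate 2 at the bottom to pho1 replicate 1 at the top with the 3 wild-type arrays next to each other, was the same with values as deposited, after quantile normalisation and after centring on the array medians.

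Markers of other cell types were compared with NAC014 across arrays. Of 30 listed markers of root, guard cell, trichome, flower and phloem, 3 had a named probe set, and none of these 3 was at 0 on any array. Their summed signal was 279 to 491 in wild type and 371 to 675 in pho1, with the highest value in pho1 replicate 2, the array in which NAC014 was lowest. PYK10 made up most of this sum on each array, so the sum mainly follows that gene. On that array the root gene PYK10, a beta-glucosidase, was at 571 against 173 to 457 elsewhere. The guard cell regulator FMA was at 91.7 against 54.0 to 79.9 elsewhere. The trichome regulator TRY was at 12 against 25.5 to 38.4. The part of these markers in the NAC014 value of that array was not tested, and none of the 3 passed the test between the groups at an adjusted p under 0.05.

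**Figure D3:**
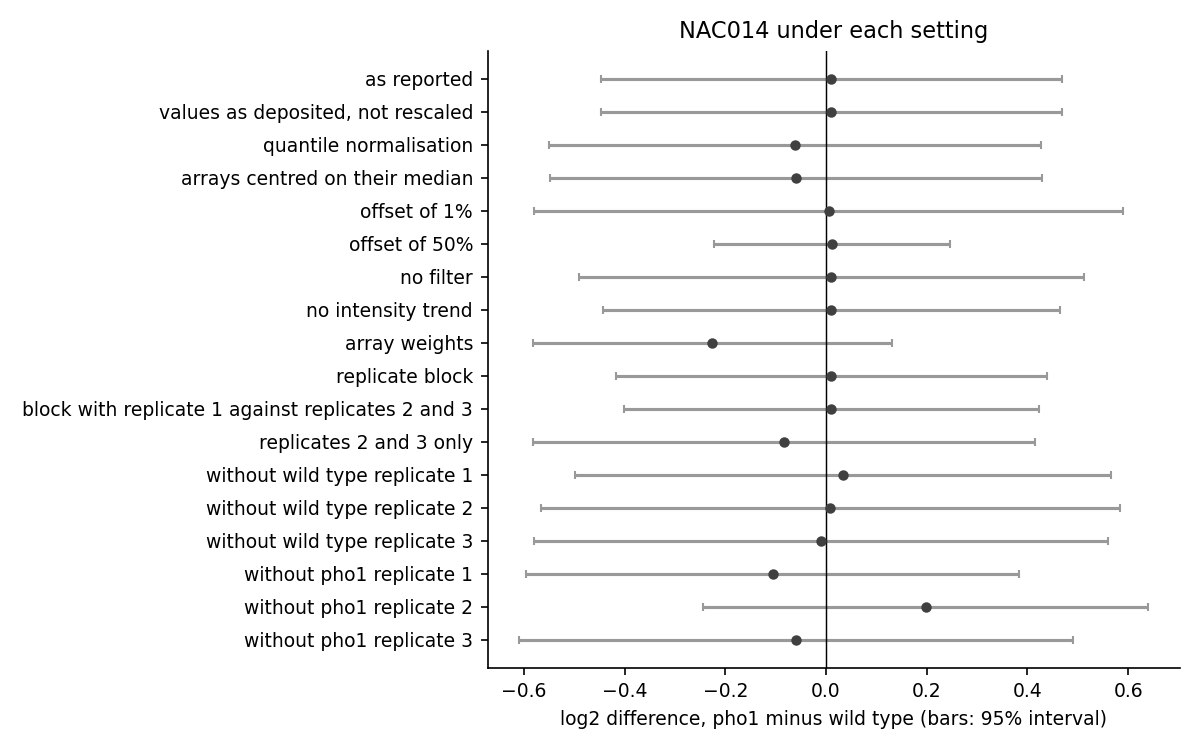
Log2 difference of NAC014, pho1 minus wild type (points), with its 95% interval (bars), as reported and under each of the 17 alternative settings that tested it. All intervals include 0, and the points range from -0.23 with array weights to 0.20 without pho1 replicate 2.

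Genes that lie downstream of other NAC factors or act with them were listed by role, and 9 of them had a named probe set, of which 7 were tested. None of the 7 was called (limma, adjusted p), where 2.96% of all tested probe sets were, while 3 had an unadjusted p under 0.05, which 15.1% of all tested probe sets had. Senescence genes made up 5 of the 7, with 4 above 0. Their median difference was 0.67 on the log2 scale, against -0.021 over all tested probe sets. This count and median rest in part on the filter, which used the mean over all arrays. WRKY53 and WRKY6 averaged 15.9 and 12.8 in wild type, under the filter signal of 17.4. They were kept through their pho1 means of 55.0 and 38.5, so the count and median are no evidence of a rise. WRKY53, a regulator of leaf senescence, differed by 1.22 (limma adjusted p = 0.14) and SAG101, a lipase-like senescence and immunity gene, by 0.67 (adjusted p = 0.17). NOL, a subunit of chlorophyll b reductase in chlorophyll breakdown, had signals of 186, 199 and 161 in wild type and 145, 129 and 129 in pho1. The groups did not overlap, which held for 19.9% of all tested probe sets, and the difference was -0.41 (limma adjusted p = 0.27). SAG101 and WRKY53 were also without overlap, with pho1 above wild type. EIN3, the ethylene signalling transcription factor that acts upstream of senescence NAC genes, differed by 0.12 (limma adjusted p = 0.85), and WRKY6 by 0.99 (adjusted p = 0.37, and 0.034 with the replicate number as a block, a fit that called 6.64% of all tested probe sets).

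NDB2, an external NADH dehydrogenase of mitochondria, stood for the genes that membrane-held NAC factors other than NAC014 switch on under mitochondrial stress. Its signal was 47.1, 48.6 and 76.8 in wild type and 58.7, 99.4 and 145 in pho1, higher in pho1 in 3 of 3 pairs but with overlap between the groups. NDB2 differed by 0.67 (limma adjusted p = 0.36). GUT2, also called IRX10, a xylan synthesis gene of secondary walls, differed by 0.11 (limma adjusted p = 0.88). SAG29, a sugar exporter gene of senescing leaves, and NDB4, a relative of NDB2, fell under the filter on the mean log2 value and were not tested. Their signals were 3.90 to 100.4 and 2.6 to 4.2 over the 6 arrays. SAG29 averaged 40.0 in wild type, with 100.4 in replicate 1, and 11.9 in pho1. It was higher in pho1 in 1 of 3 pairs. Within replicates 2 and 3 alone 4 of the 7 genes passed, namely SAG101, WRKY53, WRKY6 and NDB2, in a fit where 19% of all tested probe sets did. In wild type, WRKY53 (10.4 and 17.3) and WRKY6 (15.3 and 19.1) were near or below the main filter signal of 17.4 in these replicates. The limit set by the filter on these 2 genes therefore holds here too. NAC014 was not called in that fit.

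**Figure D4:**
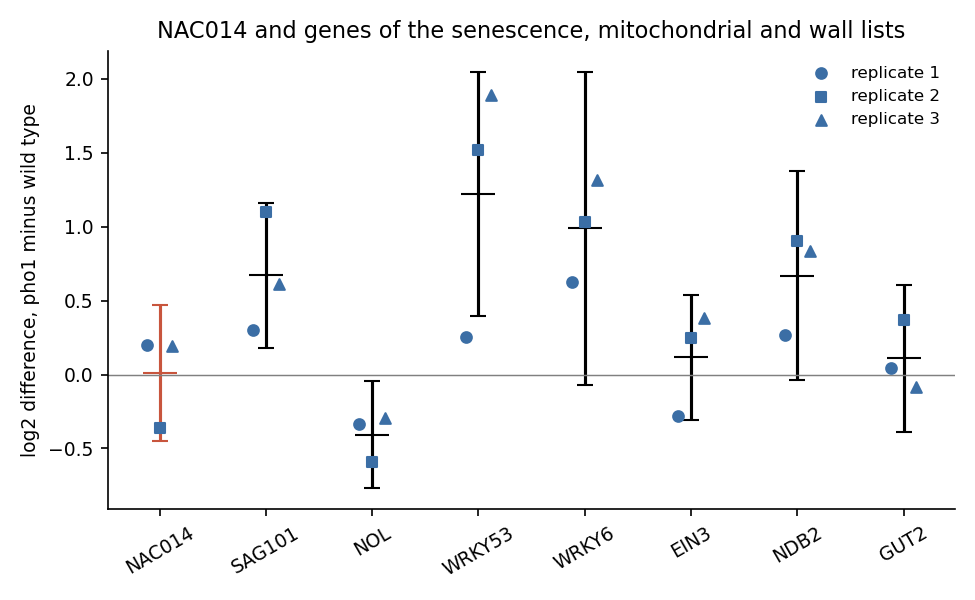
Log2 difference, pho1 minus wild type, of NAC014 (red) and of the 7 tested genes of the senescence, mitochondrial and wall lists (black), with 95% intervals from limma and blue symbols for the difference within each replicate number. NAC014 lies at 0.011 with replicate values on either side of 0, while WRKY53, WRKY6, SAG101 and NDB2 lie above 0 and NOL below 0 in all 3 replicates.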

How the data were processed

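Per the submitters' processing notes, MAS5 made the deposited linear intensity of each probe set, in a version not given in the sources used here. Of 22810 probe sets, 64 were controls, and the arrays had been scaled by the authors to a trimmed mean of about 100 (2% trimmed at each end), as the values show. Detection calls were not used here, and precision is limited by the number of arrays.

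Arrays were scaled to their mean trimmed mean, values were put on a log2 scale after adding an offset of 10% of it, and control probe sets and those under the 30th percentile of mean log2 value (a signal of 17.4) were left out. The 15922 others were fitted with limma 3.58.1 under R 4.3.3 (a moderated two-sided test with intensity trend, no block, Benjamini-Hochberg adjustment over all of them, threshold 0.05). The procedure was tried on simulated arrays that held no effect shared by replicate number, so the trial does not cover such effects. Plots were drawn with matplotlib 3.10.9.

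Probe sets were named through the platform annotation and the RefSeq table of TAIR10.1: 13513 had 1 gene, 503 several and 8730 none listed. NAC014 was the only 1 of 81 entries in 7 NAC role lists with a probe set. The senescence list had 6 of 36 entries named, the mitochondrial list 2 of 11, the secondary wall list 1 of 24 and the DNA damage list 0 of 13. A short name in the last list matched another gene and was dropped. Genes were named by rule: all NAC members, and of each other list called members or the 2 with the smallest p; NOL, EIN3, WRKY6, SAG29 and NDB4 were named beyond it after their values were seen. The members and lists were chosen with earlier results of these data known. Sequences were not used here.

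Deviations from group means correlated between same-numbered arrays across probe sets at 0.42, 0.22 and 0.39 for replicates 1, 2 and 3, so the numbers were taken to pair the arrays. The pairing comes from the data, not from the labels, and pho1 replicate 2 also correlated with wild type replicate 3 at 0.33. Alternatives were other scalings, offsets, filters and variance models, blocks, replicates 2 and 3 alone, and leaving out each array.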

Additional observations from a re-analysis of the deposited data

How the results depend on the processing

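NAC014 was not called under any of the 17 alternatives that tested it (limma adjusted p from 0.34 to 1.00); with the filter at the 50th percentile it was not tested. Its difference of 0.011, which is also the median over the NAC members, turned to -0.062 with quantile normalisation, -0.060 with arrays centred on their median, -0.23 with array weights and -0.084 in replicates 2 and 3 only. It ranged from -0.11 to 0.20 when 1 array was left out. With the replicate block it was 0.011 (limma adjusted p = 0.98), and the block changed no call of a named gene other than WRKY6. The bounds of the 95% interval lay between -0.61 and 0.64 over these settings. The count over all probe sets, 472, was 289 with no filter, 3789 with array weights, 1057 with the replicate block, 1319 with replicate 1 as a block against replicates 2 and 3, and 3021 in replicates 2 and 3 only. It ranged from 161 to 1040 when 1 array was left out, at 161 when pho1 replicate 2 was dropped, 162 for pho1 replicate 3, 1040 for pho1 replicate 1, and 182 and 303 when wild type replicates 2 and 3 were left out in turn. The cause of these shifts was not tested.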
